A study of Caenorhabditis elegans with 6 samples.

Results

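The Argonaute and small RNA pathway genes of the nematode Caenorhabditis elegans described here are 33 genes, taken by symbol from a fixed list of members. All 33 were found among the 47656 genes of the deposited gene table, and all 33 were abundant enough to be among the 16506 genes tested. By where they are generally held to act mainly, 17 were treated as germline factors, 5 as somatic factors and 11 as factors of both soma and germline. This division is approximate, since a gene treated as a germline factor may also act in the soma. The class medians below depend on it.

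The libraries were made with a stranded mRNA kit from whole wild-type worms, 3 from an ilimaquinone group and 3 from a group labelled as vehicle treated. Worms had been kept at 20 °C until the L4 larval stage. Those of the ilimaquinone group then spent 11 days in complete S-Basal with 100 µM ilimaquinone, a sesquiterpenoid quinone of marine sponges, and those of the vehicle group the same time in that medium without it. Worms of both groups also received 200 µM FUDR, which blocks DNA synthesis and with it the production of progeny, and 100 µg/mL ampicillin. The labels do not say whether replicates were separate cultures, so the p-values here speak only of the spread between these 6 libraries.

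Argonaute proteins carry small RNAs that guide them to matching transcripts. In worms, Dicer cuts double-stranded RNA and microRNA precursors, primary Argonautes bind the products, and RNA-dependent RNA polymerases then copy the targeted transcripts into secondary small RNAs for a large worm-specific group of Argonautes, the WAGOs. MicroRNA silencing is best known from somatic development, whereas much of the secondary pathway works in germ cells, in granules beside the nucleus, where it silences transposons and foreign sequences and can pass silencing on to progeny.

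The libraries held 32155192 to 39244786 estimated counts, and vehicle replicate 1 stood apart from the rest in its germline RNA. Together, 24 marker genes of oocytes and germline reached 780, 623 and 909 CPM (counts scaled to a common library size with TMM factors) in ilimaquinone replicates 1, 2 and 3, against 4126, 1052 and 1258 CPM in vehicle replicates 1, 2 and 3. The 22 sperm markers summed to 21.4, 25.7 and 48.9 CPM with ilimaquinone, against 204, 44.2 and 78.9 CPM with vehicle. Intestine markers (9 genes, 1896 to 1959 CPM with ilimaquinone and 1878 to 2194.5 CPM with vehicle) and body wall muscle markers (9 genes, 3480 to 3741 CPM with ilimaquinone and 3221 to 3954 CPM with vehicle) were present in every library. The 12 neuron markers summed to 2235 to 2586 CPM with ilimaquinone, and to 1415 CPM in vehicle replicate 1 against 2403 and 2455 CPM in vehicle replicates 2 and 3. The 8 hypodermis markers summed to 329 to 450.3 CPM with ilimaquinone and 197 to 372 CPM with vehicle. No marker of any list was at 0 in every library. In whole-animal RNA, fewer germ cells and less RNA per germ cell cannot be told apart, and the part of the germline difference in the values that follow was not tested. Results are therefore given with and without vehicle replicate 1. Leaving it out lessened the median difference of the germline and sperm marker lists but did not remove it. The median log2 fold change of the oocyte and germline markers was -1.557 with all libraries and -0.572 without vehicle replicate 1. That of the sperm markers was -1.797 and -1.03. By edgeR with all libraries, 0 of 24 germline and 1 of 22 sperm markers were called lower, against 0.327% of all tested genes. Without vehicle replicate 1 the germline markers were not alike. For perm-4, 68.7, 45.3 and 82.6 CPM with ilimaquinone stood against 120 and 170 CPM in vehicle replicates 2 and 3. For fbf-1 the groups overlapped, at 7.28, 6.53 and 8.28 CPM against 6.71 and 7.77 CPM.

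No small RNA pathway gene passed the test for a difference between ilimaquinone and vehicle. By edgeR's quasi-likelihood test, 0 of 33 members had a Benjamini-Hochberg adjusted p under 0.05, where 1.47% of all tested genes did, 1.14% higher and 0.327% lower. At an unadjusted p under 0.05 there were 3 members higher (ppw-1, znfx-1 and alg-1) and 6 lower (alg-3, alg-4, wago-4, ego-1, hrde-1 and nrde-3), where 10.1% of all tested genes were higher and 11.8% lower. The members' share of 27.3% compares with 21.9% of all tested genes. DESeq2's Wald test called alg-3, alg-4, wago-4 and nrde-3 lower and 0 members higher, with 11.1% of all genes called, 5.34% higher and 5.75% lower, and limma on log2(TPM + 1) called 0. In counts simulated on 16251 genes for this comparison, edgeR found 21.4% of 2-fold changes and 60.6% of 4-fold changes, so changes of these sizes could be missed.

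The members' fold changes leaned below 0, and vehicle replicate 1 was the highest library for most of them. In the edgeR fit 27 members had a negative log2 fold change and 6 a positive one, with a median of -0.295 against -0.02 over all tested genes. For 27 of the 33 members vehicle replicate 1 was the highest of the 6 libraries, as it was for 33.6% of all tested genes. Without that library 20 members were negative and 13 positive, with a median of -0.045, and ppw-1 alone passed the edgeR test, where 4.31% of all genes did, 2.68% higher and 1.63% lower. All 3 ilimaquinone libraries lay above the vehicle libraries for ppw-1, znfx-1 and rde-1 and below them for alg-3, wago-4, hrde-1, mut-16, alg-2, nrde-3 and rde-10. These 10 are 30.3% of the members, and 30.8% of all tested genes were separated in this way. Without vehicle replicate 1 the groups of 6 members were separated with ilimaquinone higher and of 8 with ilimaquinone lower, against 20.9% and 21.6% of all tested genes.

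**Figure D1:**
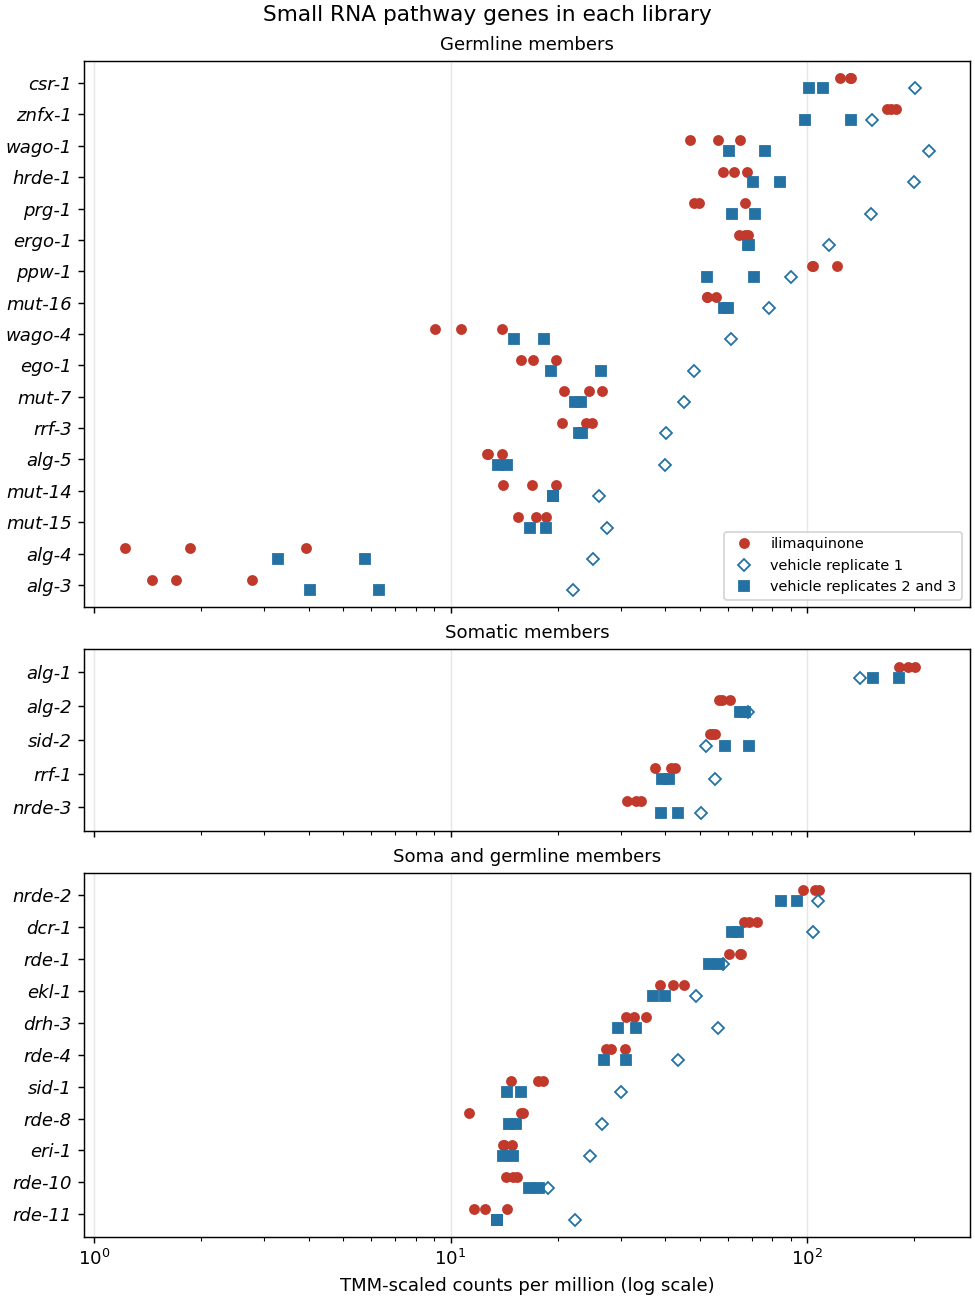
TMM-scaled CPM (log axis) of each of the 33 members in each library, with ilimaquinone libraries as red circles and vehicle libraries in blue, vehicle replicate 1 as an open diamond. The open diamond is the rightmost point for 27 members, and the red points of ppw-1 (103 to 122 CPM) and znfx-1 (168 to 177 CPM) lie right of all vehicle points.

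Among the germline Argonautes, those of sperm had the lowest levels with ilimaquinone relative to vehicle. ALG-3 and ALG-4 are close paralogs that bind small RNAs in developing sperm and are needed for normal sperm at high temperature. The gene alg-3 (gene 178106, chromosome IV, 11704246 to 11708264, build WBcel235) had 1.45, 1.70 and 2.77 CPM in ilimaquinone replicates 1, 2 and 3, against 22.1, 4.02 and 6.30 CPM in vehicle replicates 1, 2 and 3. The ilimaquinone libraries were all below the vehicle libraries, and vehicle replicate 1 was several times above its partners. The log2 fold change was -2.45 ± 0.67 (SE, adjusted p = 0.133 by edgeR, and 0.00268 to 0.412 over the alternatives). Without vehicle replicate 1 it was -1.39 ± 0.34 (adjusted p = 0.0757 by edgeR).

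Its paralog alg-4 (gene 176400, chromosome III, 9887210 to 9891458) had 1.22, 1.86 and 3.92 CPM with ilimaquinone, against 25.2, 3.28 and 5.75 CPM with vehicle. Here the groups overlapped, since ilimaquinone replicate 3 lay above vehicle replicate 2. The log2 fold change was -2.29 ± 0.83 (adjusted p = 0.188 by edgeR and 0.0256 by DESeq2), or -0.96 without vehicle replicate 1. Both genes are low: alg-3 was counted 56, 55 and 101 times with ilimaquinone and alg-4 47, 60 and 143 times. Set against the sperm markers, alg-3 had 67.8, 66.1 and 56.6 CPM per 1000 CPM of those markers with ilimaquinone. With vehicle it had 109, 91.0 and 79.8, so its groups did not overlap on that scale. The gene csr-1 went the other way on it, at 2719 to 6163 with ilimaquinone and 991 to 2301 with vehicle. The share of all tested genes separated on that scale was not computed. The marker sum was small with ilimaquinone (21.4 to 48.9 CPM), so nothing particular to alg-3 is read from this scale. The corresponding alg-4 values, 56.9, 72.1 and 80.1 with ilimaquinone, against 124, 74.3 and 72.9 with vehicle, overlapped.

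The WAGO Argonautes of the germline among the members had fold changes of both signs, and none passed the edgeR test with all libraries. Outside the members, wago-2 and ppw-2 had log2 fold changes of -1.04 and -0.155, or -0.07 and 0.20 without vehicle replicate 1. WAGO-4 carries secondary small RNAs in the cytoplasm and takes part in the inheritance of RNA interference. The gene wago-4 (gene 174932, chromosome II, 12919551 to 12923377) had 10.7, 9.06 and 13.95 CPM with ilimaquinone, against 61.2, 15.1 and 18.3 CPM with vehicle. Its groups did not overlap, with a log2 fold change of -1.49 ± 0.54 (adjusted p = 0.188 by edgeR and 0.0379 by DESeq2), or -0.58 ± 0.20 without vehicle replicate 1 (adjusted p = 0.16 by edgeR). WAGO-1 silences transposons, pseudogenes and some genes from germ granules. It had 56.2, 47.1 and 64.8 CPM with ilimaquinone, against 221, 60.3 and 76.4 CPM with vehicle, and ilimaquinone replicate 3 lay inside the vehicle range. HRDE-1, the nuclear Argonaute of germ cells that keeps silencing going across generations, had 62.4, 58.2 and 67.7 CPM with ilimaquinone, against 200.4, 70.6 and 84.1 CPM with vehicle, with no overlap. Their log2 fold changes were -1.09 ± 0.48 for wago-1 and -0.92 ± 0.38 for hrde-1, and without vehicle replicate 1 they were -0.29 and -0.31.

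The gene ppw-1 (gene 172013, chromosome I, 4182843 to 4189935), a WAGO needed for RNA interference against germline transcripts and naturally defective in some wild isolates, lay on the other side. It had 103, 104 and 122 CPM in the ilimaquinone libraries, against 90.1, 52.6 and 70.9 CPM in the vehicle libraries, a higher level in all 3 ilimaquinone libraries than in any vehicle library. The log2 fold change was 0.62 ± 0.20 (adjusted p = 0.161 by edgeR), and 0.82 ± 0.15 without vehicle replicate 1, where it passed (adjusted p = 0.0401 by edgeR). Over all alternatives the log2 fold change ran between 0.43 and 0.82 and the adjusted p between 0.0401 and 0.409. As with most germline members, its vehicle level was highest in replicate 1, 1.46 times the mean of the other vehicle libraries.

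The remaining germline Argonautes were separated less. PRG-1, the Piwi protein that binds piRNAs, had 49.9, 48.3 and 67.3 CPM with ilimaquinone, against 152, 61.8 and 71.5 CPM with vehicle. ALG-5, a microRNA-binding Argonaute of the germline, had 13.96, 12.6 and 12.8 CPM with ilimaquinone, against 40.0, 13.6 and 14.4 CPM with vehicle, and ERGO-1, which binds small RNAs of oocytes and embryos, had 68.6, 64.6 and 67.2 CPM with ilimaquinone, against 115.3, 68.9 and 68.4 CPM with vehicle. In these 3 genes the ilimaquinone libraries lay close to vehicle replicates 2 and 3, and the log2 fold changes were -0.79, -0.79 and -0.33, or -0.28, -0.10 and -0.04 without vehicle replicate 1. CSR-1, which is essential for fertility and marks transcripts of germline-expressed genes, had 132, 124 and 133 CPM with ilimaquinone, against 202, 102 and 111 CPM with vehicle. Its log2 fold change was -0.09 ± 0.26 with all libraries and 0.28 without vehicle replicate 1 (adjusted p = 0.101 by edgeR), a change of sign.

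The summed oocyte and germline markers differed up to 6.62-fold between libraries. Single markers did not vary alike. From ilimaquinone replicate 2 to vehicle replicate 1, perm-4 went from 45.3 to 573 CPM and glh-1 from 108 to 239 CPM. Values on this scale therefore depend on the markers summed. Relative to that sum, the germline Argonautes still differed between libraries, from 1.12-fold for wago-4 to 7.65-fold for ppw-1. Members of the other classes also lay within that range, such as rde-8 at 3.15-fold and nrde-3 at 4.11-fold, and alg-1 lay beyond it at 9.49-fold. Per 1000 CPM of those markers, wago-4 had 13.7, 14.6 and 15.3 CPM with ilimaquinone, against 14.8, 14.4 and 14.6 CPM with vehicle. Its highest library was 1.12 times its lowest, the smallest ratio of the 17 germline members. On the same scale wago-1 had 72.1, 75.6 and 71.2 with ilimaquinone, against 53.5, 57.3 and 60.7 with vehicle. The values of hrde-1 were 80.0, 93.5 and 74.5 with ilimaquinone, against 48.6, 67.2 and 66.9 with vehicle. Those of ppw-1 were 133, 167 and 134 with ilimaquinone, against 21.8, 50.004 and 56.3 with vehicle. On this scale 13 of the 17 germline members lay higher in all ilimaquinone libraries than in any vehicle library, and alg-3 lay lower. Of all tested genes 59.9% were higher in this way and 1.51% lower, and the marker sum was itself lower in every ilimaquinone library, so nothing particular to the members is read from the 13. The geometric mean of the markers in place of their sum gave the same counts, 13 and 1.

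**Figure D2:**
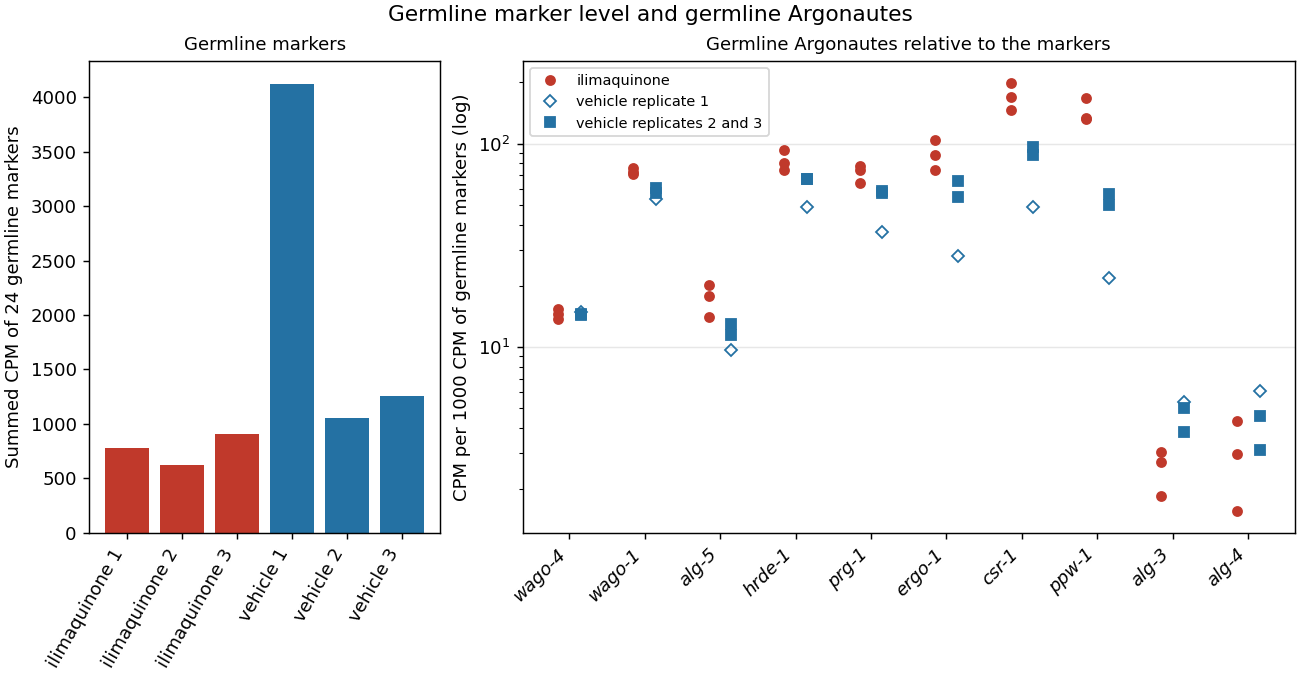
Left, summed CPM of 24 oocyte and germline markers in each library, and right, CPM of 10 germline Argonautes per 1000 CPM of those markers (log axis), one point per library. The wago-4 points of all 6 libraries lie between 13.7 and 15.3, whereas those of ppw-1 lie between 133 and 167 with ilimaquinone and between 21.8 and 56.3 with vehicle.

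The germline polymerases and mutator genes were highest in vehicle replicate 1. EGO-1 is the RNA-dependent RNA polymerase of the germline, and its gene had 15.8, 17.01 and 19.8 CPM with ilimaquinone, against 48.2, 19.1 and 26.4 CPM with vehicle (log2 fold change -0.83 ± 0.33, adjusted p = 0.208 by edgeR, or -0.38 without vehicle replicate 1). RRF-3, the polymerase that starts the endogenous small RNAs bound by ERGO-1, ALG-3 and ALG-4, had 24.9, 24.03 and 20.6 CPM with ilimaquinone, against 40.4, 22.9 and 23.3 CPM with vehicle, with a log2 fold change of -0.31, or 0.003 without vehicle replicate 1. The mutator proteins work in foci beside the germ granules where secondary small RNAs are made. The gene of the exonuclease MUT-7 had 24.4, 20.8 and 26.6 CPM with ilimaquinone, against 45.3, 22.4 and 23.2 CPM with vehicle. The gene of the helicase MUT-14 had 16.97, 14.04 and 19.7 CPM with ilimaquinone, against 26.2, 19.4 and 19.4 CPM with vehicle, and mut-15 had 17.4, 15.4 and 18.5 CPM with ilimaquinone, against 27.6, 18.5 and 16.7 CPM with vehicle. These groups overlapped, and the log2 fold changes were -0.34, -0.36 and -0.29. Without vehicle replicate 1 they were 0.065, -0.20 and -0.045, so that of mut-7 changed sign. The groups of mut-16, whose product organises the foci, did not overlap (log2 fold change -0.295, or -0.15 without vehicle replicate 1), with 55.6, 52.5 and 52.6 CPM with ilimaquinone and 78.3, 58.7 and 60.1 CPM with vehicle.

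ZNFX-1, a helicase of Z granules that keeps silencing heritable, was above vehicle in all 3 ilimaquinone libraries. The gene (gene 174463, chromosome II, 9213658 to 9223153) had 177, 168 and 172 CPM with ilimaquinone, against 153, 98.9 and 133 CPM with vehicle, a log2 fold change of 0.43 ± 0.16 (adjusted p = 0.192 by edgeR) and 0.57 ± 0.14 without vehicle replicate 1 (adjusted p = 0.0728 by edgeR). With ppw-1 it was one of 2 germline members with a positive fold change, and the median of the 17 germline members was -0.356, or -0.153 without vehicle replicate 1.

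**Figure D3:**
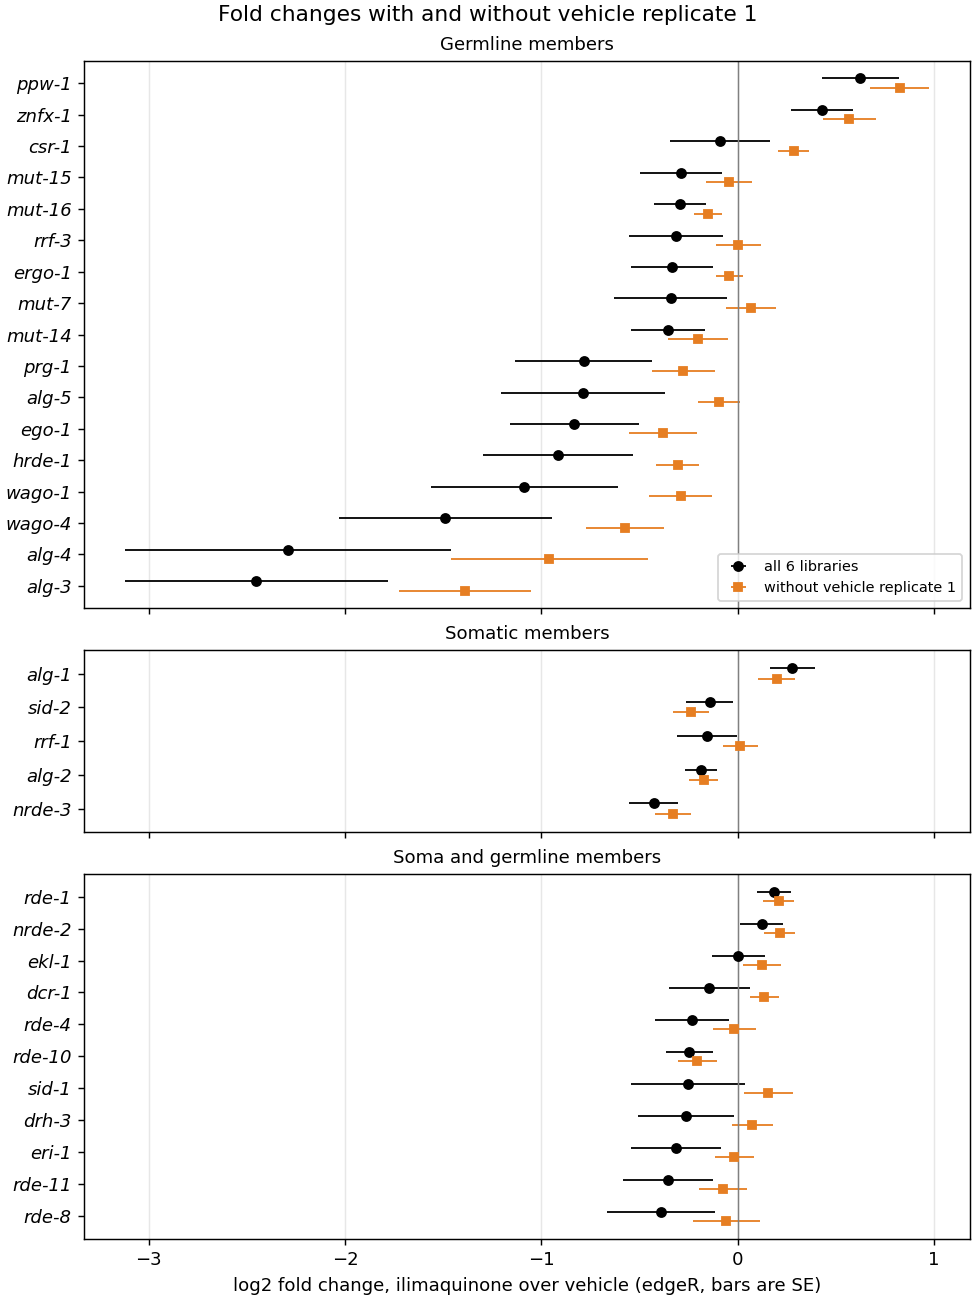
Log2 fold change of ilimaquinone over vehicle for each member, with all 6 libraries (black circles) and without vehicle replicate 1 (orange squares), bars showing the standard error. The sperm Argonautes lie farthest left, alg-3 at -2.45 and -1.39, and ppw-1 farthest right, at 0.62 and 0.82.

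The 5 somatic members differed less between libraries than most germline members, and vehicle replicate 1 was less extreme in them than in most of those. Vehicle replicate 1 was 0.816 to 1.38 times the mean of the other vehicle libraries in these genes, against 1.31 to 5.58 times in the germline members. These ranges overlap. Members of both soma and germline ran from 1.06 times for rde-1 to 1.99 times for sid-1, so a low ratio was not particular to the somatic class. NRDE-3, which carries small RNAs into somatic nuclei, had the smallest p of the class. Its gene (gene 180392, chromosome X, 372235 to 376900) had 34.4, 31.2 and 33.1 CPM with ilimaquinone, against 50.3, 43.5 and 38.97 CPM with vehicle. The ilimaquinone libraries were all lower, with a log2 fold change of -0.43 ± 0.12 (adjusted p = 0.143 by edgeR, and 0.037 to 0.445 over the alternatives) and -0.33 ± 0.09 without vehicle replicate 1.

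The microRNA Argonautes ALG-1 and ALG-2, which share most of their functions in larval development, had fold changes of opposite sign. The gene alg-1 had 193, 202 and 181.2 CPM with ilimaquinone, against 141, 181.3 and 153 CPM with vehicle, where ilimaquinone replicate 3 and vehicle replicate 2 were almost equal (log2 fold change 0.28 ± 0.12, adjusted p = 0.222 by edgeR). The gene alg-2 had 60.9, 57.7 and 56.9 CPM with ilimaquinone, against 68.2, 64.8 and 66.9 CPM with vehicle, a narrow gap without overlap (log2 fold change -0.19 ± 0.08, adjusted p = 0.236 by edgeR). In deposited TPM, which is scaled by length, the groups of alg-2 did overlap, at 22.2, 21.03 and 18.7 TPM with ilimaquinone and 27.5, 18.8 and 21.7 TPM with vehicle. They are paralogs, and the way reads common to such genes were counted was not stated in the sources used here. RRF-1, the RNA-dependent RNA polymerase of somatic RNA interference, had 41.5, 37.5 and 42.8 CPM with ilimaquinone, against 55.2, 41.1 and 39.2 CPM with vehicle. SID-2, the protein of the gut lumen that takes up double-stranded RNA from food, had 53.5, 54.1 and 55.1 CPM with ilimaquinone, against 52.1, 58.9 and 68.7 CPM with vehicle. Neither was separated between the groups. Their log2 fold changes were -0.16 for rrf-1 and -0.14 for sid-2, or 0.01 and -0.24 without vehicle replicate 1, and the median of the class was -0.156, or -0.175 without vehicle replicate 1.

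The 11 members that act in soma and germline ranged in log2 fold change from -0.39 to 0.18, and their median of -0.248 became 0.073 without vehicle replicate 1. RDE-1, the primary Argonaute of RNA interference against foreign double-stranded RNA, had 64.8, 65.4 and 60.5 CPM with ilimaquinone, against 58.0, 53.3 and 56.5 CPM with vehicle, higher in all 3 ilimaquinone libraries (log2 fold change 0.18 ± 0.09, adjusted p = 0.264 by edgeR). RDE-10, which acts with RDE-11 to amplify secondary small RNAs, had 14.97, 14.4 and 15.4 CPM with ilimaquinone, against 18.8, 16.6 and 17.8 CPM with vehicle, lower in all 3 (log2 fold change -0.25 ± 0.12). The gene rde-11 had 11.6, 12.5 and 14.4 CPM with ilimaquinone, against 22.3, 13.5 and 13.5 CPM with vehicle, with overlapping groups and a log2 fold change of -0.36, or -0.08 without vehicle replicate 1. Dicer, encoded by dcr-1, had 68.6, 66.8 and 72.3 CPM with ilimaquinone, against 104, 61.5 and 64.3 CPM with vehicle, so that its ilimaquinone libraries lay above vehicle replicates 2 and 3 and below vehicle replicate 1. Its log2 fold change was -0.15 ± 0.21 with all libraries and 0.14 without vehicle replicate 1.

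The genes sid-1, drh-3, eri-1, rde-4 and rde-8 were also highest in vehicle replicate 1, but their ilimaquinone libraries overlapped vehicle replicates 2 and 3. SID-1, the channel that lets double-stranded RNA spread between cells, had 17.6, 14.8 and 18.1 CPM with ilimaquinone, against 30.1, 15.8 and 14.4 CPM with vehicle. RDE-4, the partner of Dicer that binds double-stranded RNA, had 28.1, 27.3 and 30.9 CPM with ilimaquinone, against 43.5, 26.997 and 31.1 CPM with vehicle. The log2 fold changes of sid-1 and rde-4 were -0.25 and -0.23, or 0.16 and -0.02 without vehicle replicate 1. The helicase gene drh-3 had 35.4, 30.99 and 32.8 CPM with ilimaquinone, against 56.5, 29.6 and 33.2 CPM with vehicle. The exonuclease gene eri-1, whose product limits RNA interference, had 14.1, 14.04 and 14.9 CPM with ilimaquinone, against 24.6, 14.1 and 14.9 CPM with vehicle, and the endonuclease gene rde-8 had 15.8, 11.3 and 15.9 CPM with ilimaquinone, against 26.6, 15.3 and 14.6 CPM with vehicle. The log2 fold changes of these 3 genes were -0.27, -0.31 and -0.39. Without vehicle replicate 1 they were 0.07, -0.02 and -0.06. The Tudor domain gene ekl-1 had 42.2, 38.8 and 45.2 CPM with ilimaquinone, against 48.9, 37.1 and 39.9 CPM with vehicle, a log2 fold change of 0.003 ± 0.13, or 0.12 without vehicle replicate 1, whose sign turned under several scalings. The gene nrde-2, whose product acts with the nuclear Argonautes, had 97.5, 105.6 and 108 CPM with ilimaquinone, against 107, 93.6 and 84.9 CPM with vehicle, a log2 fold change of 0.12 ± 0.11, or 0.21 without vehicle replicate 1. Vehicle replicate 1 lay among the ilimaquinone libraries of nrde-2, and above them for ekl-1.

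On the length-scaled level, the deposited TPM, the members' order depended on the library. In all 3 ilimaquinone libraries sid-2 was the most abundant member, at 63.9 to 66.5 TPM, followed by alg-1, csr-1 and ppw-1 in varying order at 43.7 to 51.6 TPM. In vehicle replicate 1 the 4 most abundant members were the germline genes wago-1 at 99.2, prg-1 at 78.1, hrde-1 at 77.8 and csr-1 at 75.8 TPM. In vehicle replicates 2 and 3 sid-2 led again, at 68.2 and 75.8 TPM. The least abundant members were alg-3 at 0.745 ± 0.260 TPM with ilimaquinone and 4.32 ± 4.33 TPM with vehicle (mean ± SD, n = 3 each) and alg-4 at 0.862 ± 0.528 TPM with ilimaquinone and 4.59 ± 5.22 TPM with vehicle. Of the genes acting in both soma and germline, nrde-2 had 31.5 ± 1.88 TPM with ilimaquinone and 29.0 ± 6.44 TPM with vehicle, and rde-4 had 29.7 ± 1.70 TPM with ilimaquinone and 35.2 ± 12.6 TPM with vehicle, an order that lies within their spread.

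Of the 33 members 12 have more than 1 transcript in the deposited transcript table, and the shares of 3 of them separated the groups. The share of 6 of 27 transcripts that held between 1% and 99% of their gene's TPM did not overlap between groups, against 12.3% of all such transcripts, and the 6 come as pairs from eri-1, alg-3 and alg-1, so that they amount to 3 differences. They are named here because of the values seen. No test was run on them, since with 3 libraries a group the smallest exact permutation p is 0.1 (two-sided). For eri-1 a transcript of 1567 bases held 32.5%, 25.05% and 13.3% of the gene's TPM with ilimaquinone, against 5.25%, 8.09% and 6.84% with vehicle. It rested on 157, 99 and 62 counts with ilimaquinone, against 39, 33 and 27 with vehicle, and the main transcript of 1898 bases held most of the rest. For alg-3 the transcript of 3206 bases was listed at 0 in all 3 ilimaquinone libraries, and held 15.9%, 36.6% and 27.2% with vehicle. The alg-3 counts with ilimaquinone were few and its transcripts overlap over most of their length, so the split between them is uncertain. The short alg-1 transcript of 3072 bases held 0.373%, 3.24% and 5.51% with ilimaquinone, against 6.50%, 7.90% and 6.50% with vehicle.

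The transcript shares of csr-1 and alg-2 varied as much within a group as between groups. The csr-1 transcript of 2604 bases held 0.994%, 9.19% and 28.1% with ilimaquinone, against 0.477%, 14.8% and 18.3% with vehicle. The alg-2 transcript of 4182 bases held 17.5%, 26.9% and 55.1% with ilimaquinone, against 20.2%, 92.9% and 29.3% with vehicle. The way reads were divided among overlapping transcripts was not stated in the sources used here.

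**Figure D4:**
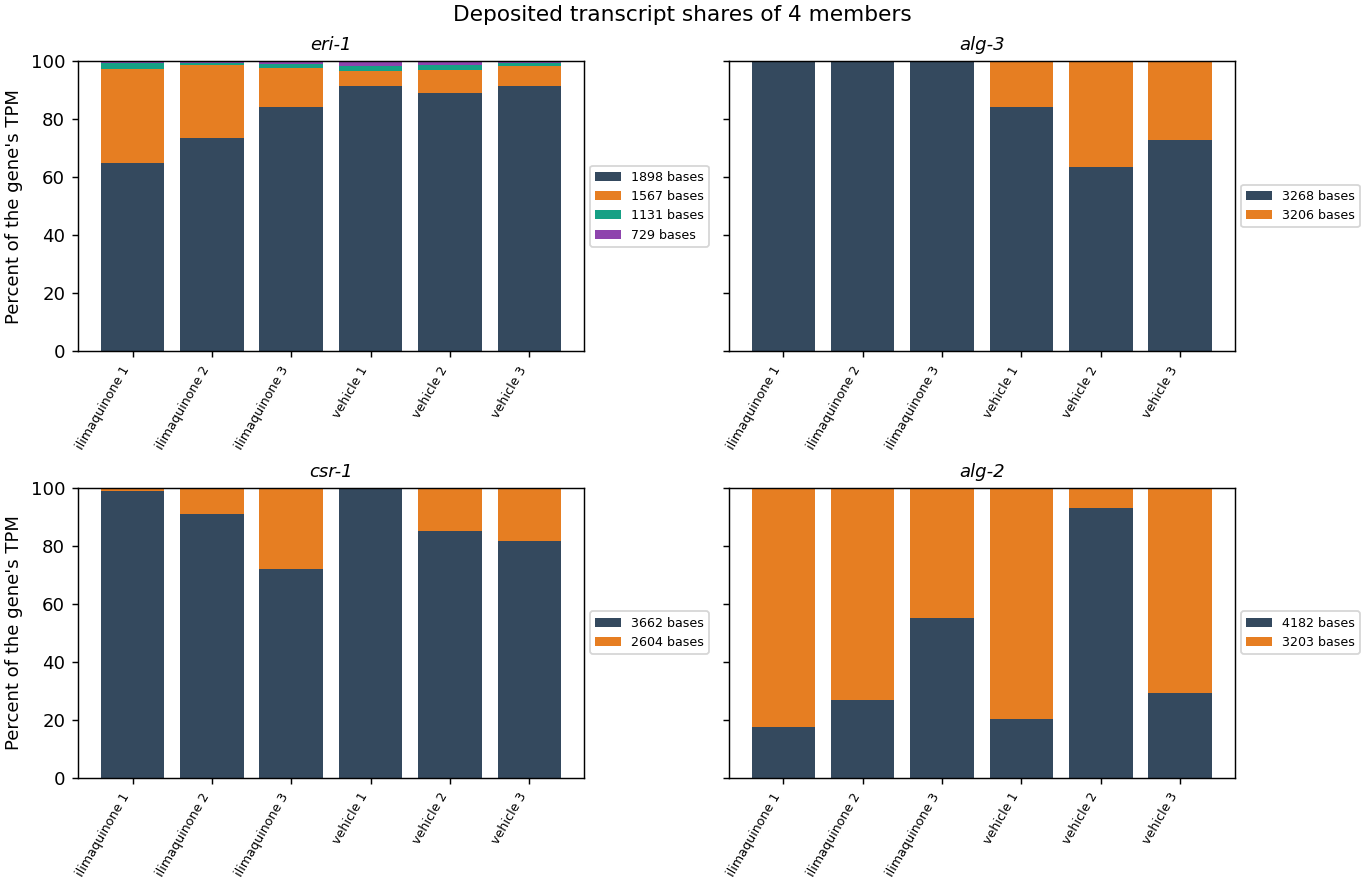
Percent of a gene's deposited TPM held by each of its transcripts, named by length in bases, in each library for eri-1, alg-3, csr-1 and alg-2. The 1567-base transcript of eri-1 is larger in the 3 ilimaquinone libraries (13.3% to 32.5%) than in the vehicle libraries (5.25% to 8.09%), and the alg-2 shares differ most between vehicle libraries.

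Other genes of the small RNA pathways, in 6 lists by role, were tested in the same fit, and 57 of 58 matched genes had enough counts. Of these 0 passed the edgeR test, against 1.47% of all tested genes. At an unadjusted p under 0.05 there were 2 higher and 3 lower, against 10.1% and 11.8% of all tested genes. DESeq2 called 2 higher and 1 lower, against 5.34% and 5.75% of all tested genes. Their median log2 fold change was -0.30, or -0.026 without vehicle replicate 1. Among the other Argonautes (7 tested, median -0.155), sago-2, which binds secondary small RNAs mainly in the soma, lay on the side of ppw-1, with 33.4, 32.6 and 38.1 CPM with ilimaquinone, against 26.2, 16.6 and 22.7 CPM with vehicle. Its log2 fold change was 0.67 ± 0.18 (adjusted p = 0.132 by edgeR), and without vehicle replicate 1 it passed (0.82, adjusted p = 0.0474 by edgeR). The Argonaute gene wago-10 lay on the side of alg-3, with 0.829, 0.990 and 1.62 CPM with ilimaquinone, against 8.56, 2.22 and 2.22 CPM with vehicle (log2 fold change -1.92 ± 0.62, adjusted p = 0.168 by edgeR, or -0.95 without vehicle replicate 1). The gene wago-5 was listed at 0 in all 6 libraries.

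All 13 genes of piRNA biogenesis had a negative log2 fold change (median -0.397), and so had all 7 of nuclear RNA interference (median -0.317). Over all tested genes, 8587 of 16506 were negative. Vehicle replicate 1 was the highest library for 13 and 6 genes of these lists, and for 33.58% of all tested genes. Without it, 3 of the 13 and 3 of the 7 were positive, and the medians were -0.034 and -0.002. The genes with the smallest p in these lists were tost-1 and erh-2, whose products are parts of the PETISCO complex, with log2 fold changes of -1.09 and -0.44, and hrde-2 and the histone methyltransferase gene set-25, with -0.85 and -0.35. Without vehicle replicate 1 they were -0.40 for tost-1, -0.26 for erh-2, -0.19 for hrde-2 and -0.37 for set-25. In the list of ERI complex and antiviral genes (9 tested, median -0.19), drh-2, a helicase gene related to the RIG-I type receptor gene drh-1, had 242, 239 and 262 CPM with ilimaquinone, against 201, 198 and 212 CPM with vehicle. Its log2 fold change was 0.28 ± 0.08 (adjusted p = 0.148 by edgeR, and 0.0485 in DESeq2), and eri-7 had one of -0.54, or -0.31 without vehicle replicate 1. In microRNA processing and silencing (10 tested, median -0.036), Drosha, encoded by drsh-1, had a log2 fold change of -0.64 and cgh-1 one of -0.87, or -0.22 and -0.19 without vehicle replicate 1. In the list of RNA interference effectors and transport (11 tested, median -0.05), smut-1, a paralog of mut-14, and the nucleotidyltransferase gene mut-2 had log2 fold changes of -0.36 and -0.70, or -0.12 and -0.08 without vehicle replicate 1. None of these passed the edgeR test.

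The exons of 26 members share no base with exons of other protein-coding genes in the Ensembl annotation of the same build. The largest share was that of csr-1, where 438 bases, 11.9% of its exonic length, are also exons of frpr-10 on the same strand, and for these bases the gene that received the reads is uncertain. In the other 6 members the shared part was at most 2.72% and lay opposite a gene on the other strand, and whether counting used strand was not stated in the sources used here.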

How the data were processed

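The deposited gene and transcript tables of 6 whole-animal libraries, 3 with ilimaquinone and 3 with vehicle, were used, with groups and replicate numbers from the sample titles. Reads were handled with bcl2fastq 2.20.0, HISAT2 2.1.0 and SAMtools 1.9 on build WBcel235, per the submitters' processing notes. Not given in the sources used here are the program that counted reads, whether it used strand, and the gene annotation. The authors deposited whole numbers headed as read counts, here called estimated counts, because whether they are tallies or derived from coverage could not be settled. FPKM as deposited by the authors served only to check these counts against transcript length. TPM as deposited by the authors served for levels between genes and for transcript shares.

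Estimated counts were analysed with edgeR 4.0.16 in R 4.3.3 (filterByExpr, TMM factors, quasi-likelihood F test, Benjamini-Hochberg adjustment over 16506 genes, threshold 0.05). Standard errors were obtained as the size of the log2 fold change over the root of F. The test was checked on simulated counts. Alternatives were other scaling factors, no filter or a stricter one (1 CPM in 3 libraries), a replicate block, the Wald test of DESeq2 1.42.0, limma 3.58.1 on log2(TPM + 1), and the omission of single libraries. Every library differed from the others by more than sampling noise. Precision is limited by 3 libraries a group, with a biological coefficient of variation of 28.4%.

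The members, their classes and all lists were chosen with earlier results of these data known. All members are named, together with the 2 genes of smallest p in each other list. Of 61 other pathway genes listed 58 matched, and of 85 markers 84 did. Loci are from the deposited table, and 29 members lie within 1000 bases of Ensembl release 115 at both ends. The others are ergo-1, ppw-1, nrde-2 and sid-1.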

Additional observations from a re-analysis of the deposited data

How the results depend on the processing

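Over all genes, 188 were called higher and 54 lower by edgeR. Without a filter on low counts there were 60 and 9, with a replicate block 21 and 1, by the DESeq2 Wald test 882 and 949, and with the stricter filter 94 lower. Leaving out single libraries gave 11 to 451 higher and 0 to 274 lower. Among the 33 members, DESeq2 called 4 lower, and leaving out single libraries gave 0 to 1 higher, the 1 being ppw-1 without vehicle replicate 1. Among the other pathway genes DESeq2 called 2 higher and 1 lower, and leaving out single libraries gave 0 to 1 higher. Leaving out single libraries moved the median log2 fold change to between -0.539 and -0.153 for germline members, -0.226 and -0.135 for somatic members and -0.394 and 0.073 for those of soma and germline.

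Of 462 member values under alternatives, 442 kept their sign and side of the threshold. Signs turned when single libraries were left out for csr-1 (-0.289 to 0.285), rrf-3 (-0.477 to 0.003), mut-7 (-0.539 to 0.065), rrf-1 (-0.261 to 0.011), dcr-1 (-0.301 to 0.135), drh-3 (-0.459 to 0.073), sid-1 (-0.461 to 0.156) and ekl-1 (-0.098 to 0.124). The sign of ekl-1 also turned with DESeq2 size factors and DESeq2 (-0.007 each), upper-quartile factors (-0.012), library size alone (-0.029) and the stricter filter (-0.023). The cause was not tested.

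Whether replicate numbers pair the samples was not settled. Deviations of same-numbered libraries from their group means correlated at -0.161, 0.288 and -0.161, and those of differently numbered ones at -0.32 to 0.375. These values cannot decide it, because the deviations within a group of 3 sum to 0. Chosen after seeing the data, the count of members with groups not overlapping was 6 higher and 8 lower without vehicle replicate 1. Low counts limit alg-3 and alg-4, and the 3 libraries a group limit small changes.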
